A study of Mus musculus with 12 samples.

Results

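The transcripts described here are 7 gene rows for noncoding RNAs of total blood RNA: Rn7s1 and Rn7s2 (both 7SL), Rn7sk (7SK), Rpph1 (the RNA of RNase P), Rmrp (the RNA of RNase MRP), and the nuclear long noncoding RNAs Malat1 and Neat1. They were taken by gene name, with no threshold on their values, and all 7 were found among the 55367 mouse genes of the count table. Blood came from CB17-SCID mice bearing HT1376 xenografts, tumours grown from a human bladder cancer cell line, and every group carried them. For 11 days the mice were dosed by mouth each day with vehicle or with 35 mpk (mg per kg) of CPI-0209, which inhibits EZH2 and EZH1, enzymes of a Polycomb repressive complex that place methyl groups on lysine 27 of histone H3. There were 12 libraries, 3 from vehicle mice and 3 from CPI-0209 mice at each of 3 collection times, 1, 6 and 24 h after the final dose. The labels give neither the age of the mice nor the bleeding time of the vehicle group, and they do not say whether each library is a separate mouse, so p-values measure the spread between these libraries only. SCID mice lack mature T and B cells, and the B cell marker Ms4a1 had 0 counts in all 12 libraries.

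7SL is the RNA scaffold of the signal recognition particle, which carries ribosomes making secreted proteins to the endoplasmic reticulum. 7SK holds the elongation kinase P-TEFb (Cdk9 with a cyclin T) inactive together with Hexim1 or Hexim2, Larp7 and Mepce. RNase P trims the 5′ ends of transfer RNA precursors, and RNase MRP, which shares most of its proteins, cuts ribosomal RNA precursors. All 4 RNAs are made by RNA polymerase III and lack a long poly(A) tail, so a library made by ribosomal RNA depletion, as here, can hold them where a poly(A) library would mostly miss them. Malat1 and Neat1 are RNA polymerase II transcripts of neighbouring genes that stay in the nucleus. Malat1 gathers at nuclear speckles and Neat1 builds paraspeckles. Mature red cells and reticulocytes of mammals have lost the nucleus, and platelets never have one.

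The 7SL genes Rn7s1 and Rn7s2 both lie on chromosome 12, on the plus and the minus strand, each as a single exon. Their 300 bases are the same at 300 of 300 positions in the GENCODE M21 transcripts (GRCm38), so that no read can tell them apart. The start of 7SK, bases 1 to 100 (chr9:78175534-78175633, minus strand), is given from the same transcripts with each GATC in capitals, since Hexim1 is known to bind the GAUC repeats of the first hairpin.
Rn7sk: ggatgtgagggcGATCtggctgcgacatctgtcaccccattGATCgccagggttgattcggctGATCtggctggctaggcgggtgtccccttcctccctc

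GATC, which reads the same on both strands, stood 3 times in that window of 7SK and nowhere else in that RNA, while each 7SL gene held it 4 times over its whole length. Of 7817 annotated transcripts of 281 to 381 bases, 0.627% held it as often in their first 100 bases and 26.7% held it at least 1 time. Outside the identical 7SL pair, the 4 RNA polymerase III transcripts had little sequence in common. The longest run of bases shared by any pair was 10, between 7SL and Rpph1.

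The remaining genes have their own places in GRCm38. Rn7sk is a single exon of 331 bases (chromosome 9, 78175303 to 78175633, minus strand). Rmrp has 281 bases (chromosome 4, 43492783 to 43493063, minus strand) and Rpph1 has 319 (chromosome 14, 50807449 to 50807767, minus strand). Malat1 (chromosome 19, 5795690 to 5802672, minus strand) and Neat1 (chromosome 19, 5824708 to 5845478, minus strand) have 4 annotated transcripts each, and their exons cover 6983 and 20771 bases. 2 of the genes overlap others. Rmrp overlaps Ccdc107 on the opposite strand, and Rpph1 overlaps Ccnb1ip1 on its own strand and lies 74 bases from Parp2 on the other. The sources used here do not give whether strand was used in counting, and reads in these overlaps could have gone to either gene. Ccdc107 was counted at 0 to 14 per library and Ccnb1ip1 at 0 to 2, against 65 to 152 for Rmrp and 94 to 634 for Rpph1.

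Library totals ran from 6496573 to 9978215 counts. Together the 7 rows took 7.34% to 11.3% of them, with a median of 9.52%. By group the share was 10.2%, 10.8% and 11.0% in vehicle blood. It was 7.84%, 9.55% and 7.34% in 1 h blood, 9.49%, 9.08% and 11.3% in 6 h blood, and 8.89%, 8.80% and 10.7% in 24 h blood. Each 1 h library lay below each vehicle library, while the 6 h and 24 h groups overlapped vehicle. The mean share at 1 h was 8.24% ± 1.16 against 10.7% ± 0.377 in vehicle (SD, n = 3 each), with a two-sided exact permutation p of 0.1, the smallest that 3 against 3 libraries can give, and 0.525 after Benjamini-Hochberg adjustment over 42 comparisons of shares.

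**Figure D1:**
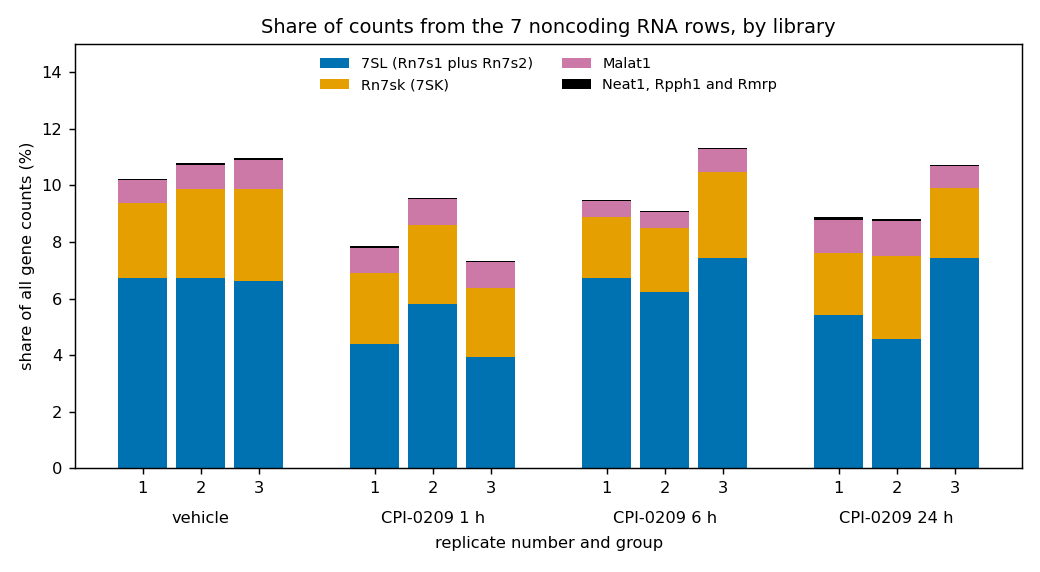
Stacked bars give the percent of all gene counts taken by 7SL, Rn7sk, Malat1 and the other 3 RNAs in each of the 12 libraries, grouped by vehicle and by hours after the last dose. 7SL is the largest block in each bar, and the bars of 1 h replicates 1 and 3 are the lowest, at 7.84% and 7.34%.

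Almost all of this was 7SL, 7SK and Malat1. Rn7s1 and Rn7s2 ranked 2 and 3 among all genes by summed count, Rn7sk ranked 5 and Malat1 ranked 13. Neat1 ranked 299, Rpph1 4152 and Rmrp 6157. The 3 rows for 7SL and 7SK held 99.97% to 99.99% of the counts in the 554 genes that GENCODE M21 calls misc_RNA. Counting error was small beside these shares: the 95% Wilson interval reached at most 0.353% of the value either way for 7SL, 0.513% for Rn7sk, 0.859% for Malat1 and 5.01% for Neat1, but 20.3% for Rpph1 and 24.5% for Rmrp. These intervals cover counting error only.

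Levels of different genes were compared per length, as counts per exon base scaled to the same total in each library (TPM, computed here and not an authors' value). On that scale Rn7s1, Rn7s2 and Rn7sk took ranks 1, 2 and 3 of all genes, ranked by their mean over the libraries. Summed, 7SL had a median of 377546 TPM over the 12 libraries and Rn7sk had 152221 TPM. Malat1 had a median of 2232 TPM and, by its mean, rank 32. The medians were 95.9 TPM for Rpph1, 81.3 TPM for Rmrp and 36.7 TPM for Neat1, and their ranks by mean were 403, 715 and 1425. The mean of Rpph1, 141 TPM, was raised above its median by 2 libraries. Neat1, which had more counts than Rpph1 in each library, stood below both RNase RNAs per length, except in 24 h replicate 1, where it had 101 TPM against 89.5 TPM for Rmrp. The lowest 7SL library (283395 TPM) lay above the highest Rn7sk library (174777 TPM), which lay above the highest Malat1 library (3560 TPM). Rpph1 (75.4 to 445 TPM), Rmrp (46.8 to 109 TPM) and Neat1 (14.9 to 101 TPM) overlapped as neighbours in this order. A paired-end read of 150 bases has few places to start in an RNA of about 300, so the TPM of the short RNAs is the less exact.

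The comparisons asked whether the level of each RNA differed between CPI-0209 and vehicle and between collection times. Levels are CPM, counts scaled to library sizes that TMM had adjusted, and folds are from edgeR's quasi-likelihood model of all 12 libraries, with Benjamini-Hochberg adjustment over the 13384 genes that passed the filter on low counts. All 7 rows passed that filter. No row passed the threshold of 0.05 in any of the 7 contrasts. At an unadjusted p under 0.05 there was 1 of 7 rows at 1 h, 0 at 6 h, 1 at 24 h and 1 for the mean of the times, each against vehicle, and 3, 2 and 0 for 6 h against 1 h, 24 h against 6 h and 24 h against 1 h. Of all genes, 6.99%, 19.6%, 8.37% and 10.5% were under it against vehicle, in the same order. Between times the shares were 20.7%, 22.1% and 6.11%. Rn7s1 and Rn7s2 were 2 of the 3 rows for 6 h against 1 h. Past the adjusted threshold were 0.194% of all genes at 1 h, 4.84% at 6 h and 0.105% at 24 h, each against vehicle. For the mean of the times it was 0.934%. Between times, 0.493% were called for 6 h against 1 h, 1.76% for 24 h against 6 h and 0.0224% for 24 h against 1 h. With 7 rows, a count of 0 is what a share of called genes of this size would give. By DESeq2's Wald test on the same counts, 2 rows passed for 6 h against 1 h, Rn7s1 and Rn7s2, and 0 in the other contrasts. These 2 rows have the same sequence and are 1 measurement, and that test called 742 of the 13384 genes there. An F test for any difference among the times called 0.755% of genes and none of the 7 rows, while the DESeq2 likelihood ratio test called 2 of them. The share of all genes called by that likelihood ratio test was not computed here.

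**Figure D2:**
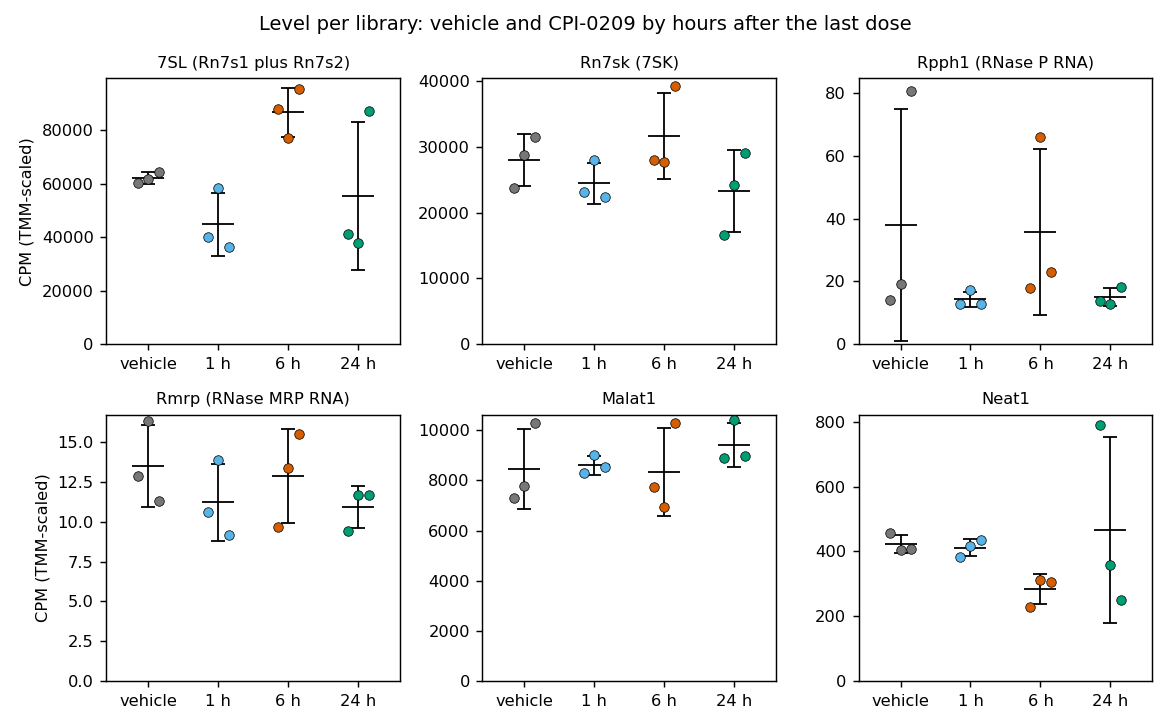
Points give CPM on TMM-scaled library sizes in each library, with the mean and SD of 3 libraries as a bar and whiskers, for vehicle and for 1, 6 and 24 h after the last CPI-0209 dose. 7SL is high in all 6 h libraries and in 1 of the 24 h libraries, Neat1 is low in the same 4 libraries, and Rpph1 stands apart in 1 vehicle and 1 6 h library.

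7SL was the most abundant of these RNAs. It had 60084, 61760 and 64451 CPM in vehicle blood. The 1 h libraries had 40193, 58244 and 36137 CPM, the 6 h libraries 87968, 76932 and 95137 CPM, and the 24 h libraries 40982, 37928 and 87124 CPM. The vehicle libraries lay close together, all 1 h libraries were below them and all 6 h libraries above them, and at 24 h 2 libraries were low and replicate 3 was as high as the 6 h group. The level at 6 h was 86679 ± 9171 CPM against 44858 ± 11769 CPM at 1 h (SD, n = 3 each), a 1.93-fold difference with a 95% interval of 1.17 to 3.20. Its adjusted p was 0.145 with both rows summed, 0.13 for Rn7s1 and 0.142 for Rn7s2, so it did not pass. Genes whose 6 h and 1 h libraries do not overlap made up 31.9% of those tested.

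Against vehicle the 7SL differences were smaller than that. The log2 fold change at 1 h was -0.47 (adjusted p = 0.879). It was 0.48 at 6 h (adjusted p = 0.464) and -0.17 at 24 h (adjusted p = 0.941), each with an SE of 0.34. Neither the 1 h nor the 6 h group overlapped vehicle, which held for 17.4% and 29.3% of all genes tested in those comparisons. At 24 h the fold interval was 0.541 to 1.47. Without 24 h replicate 3, Rn7s1 and Rn7s2 passed for 6 h against 1 h (log2 0.97 and 0.94, adjusted p = 0.0058 and 0.0063) and for 24 h against 6 h (log2 -1.14 and -1.14, adjusted p = 0.001 and 0.00098), against -0.66 and -0.63 with it (adjusted p = 0.241 and 0.277). A fit to the 2 groups compared alone called both rows at 6 h against vehicle (log2 0.49 and 0.47, adjusted p = 0.0191 and 0.0214) and at 6 h against 1 h (log2 0.92 and 0.90, adjusted p = 0.0049 and 0.0056). In these contrasts such fits also called more of all genes than the reported fit did, with counts or ranges given at the end.

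The counts of Rn7s1 and Rn7s2 were equal in 7 of the 12 libraries and differed by 2.12% to 3.69% in the other 5. In 4 of those 5, vehicle replicate 2, 6 h replicates 2 and 3 and 24 h replicate 1, Rn7s2 had the lower count, and in 24 h replicate 3 it had the higher. Since the sequences are identical, the division between the rows is a product of the counting and only the sum was measured. The 7 rows thus hold 6 separate measurements.

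7SK was steadier. It had 23790, 28816 and 31574 CPM in vehicle blood and 23086, 27949 and 22315 CPM in 1 h blood. The later libraries had 28045, 27680 and 39290 CPM (6 h) and 16600, 24227 and 29016 CPM (24 h). Every group overlapped every other. Its largest log2 difference from vehicle was -0.27 (SE 0.27, adjusted p = 0.848) at 24 h, with a fold interval of 0.554 to 1.24, and at 6 h it was 0.17 (SE 0.27, adjusted p = 0.778). As shares of counts, 7SK took 3.01% ± 0.313 in vehicle blood, and 2.58% ± 0.189, 2.48% ± 0.503 and 2.53% ± 0.367 at the 3 times in order (SD, n = 3 each).

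Rpph1 rested on few counts, and 2 libraries set its group means. It had 122, 179 and 634 counts in the vehicle libraries, and 94, 150 and 120 in those of 1 h. The 6 h libraries had 119, 533 and 180 counts, and the 24 h libraries 118, 119 and 117. Vehicle replicate 3 and 6 h replicate 2 stood far above the other 10 libraries, which ran from 94 to 180 counts. In those 2 libraries the neighbour Parp2 had 69 and 21 counts, within its range of 14 to 102 elsewhere. Rpph1 averaged 14.3 ± 2.45 CPM at 1 h against 38.0 ± 37.0 CPM in vehicle (SD, n = 3 each), a log2 fold change of -1.41 (SE 0.57, adjusted p = 0.602). The 24 h change was -1.35 with the same SE and an adjusted p of 0.56. Without vehicle replicate 3 these became -0.20 and -0.15, and the 6 h change became 1.08 against -0.09 with it. Without 6 h replicate 2 the 6 h change was -0.89, and the changes for 6 h against 1 h and 24 h against 6 h became 0.52 and -0.46, against 1.32 and -1.26 with it. With no filter on low counts, edgeR called Rpph1 for 6 h against 1 h and 24 h against 6 h and, against vehicle, at 1 h, at 24 h and over all times, at nearly the same folds but with a smaller SE (0.25 at 1 h). More of all genes were also called in that fit in each of these contrasts, with counts given at the end.

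Rmrp had 111, 152 and 89 counts in the vehicle libraries and 78, 122 and 85 in those of 1 h. The 6 h libraries had 65, 108 and 121 counts, and the 24 h libraries 81, 108 and 75. All groups overlapped in CPM and none stood apart. Its level was 13.5 ± 2.56 CPM in vehicle blood, and 11.2 ± 2.44, 12.9 ± 2.95 and 10.9 ± 1.32 CPM in 1, 6 and 24 h blood (SD, n = 3 each). The log2 fold change against vehicle was -0.27 at 1 h, -0.07 at 6 h and -0.31 at 24 h, each with an SE of 0.24 to 0.25 and an adjusted p of 0.919, 0.907 and 0.795. Rpph1 and Rmrp are partners of nearly the same proteins, but the 2 libraries that were high in Rpph1 had 11.3 and 13.4 CPM of Rmrp, inside the range of the rest.

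Malat1 differed least. It had 7302, 7795 and 10279 CPM in vehicle blood. In treated blood it had 8275, 9024 and 8524 CPM (1 h), 7725, 6937 and 10295 CPM (6 h), and 8877, 10411 and 8960 CPM (24 h). Every group overlapped every other, and the SD between libraries of a group on the log2 scale, 0.21, stood at percentile 15.4 of all tested genes. Among the most abundant genes, the top decile by mean log2 CPM, the median SD was 0.23, close to that of Malat1. The fold against vehicle was 1.02 at 1 h (95% interval 0.729 to 1.42), 0.984 at 6 h (0.704 to 1.37) and 1.11 at 24 h (0.797 to 1.55), with adjusted p of 0.99, 0.968 and 0.915. As a share of counts it was lower at 6 h, at 0.652% ± 0.131 against 0.907% ± 0.13 in vehicle (SD, n = 3 each), with an exact permutation p of 0.1, 0.525 after the same adjustment. On the scale of library totals the median log2 change of all genes at 6 h was -0.50, and that of Malat1 was -0.48.

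In TMM-scaled CPM, Neat1 was lowest in the 4 libraries where 7SL was highest. As shares of counts Neat1 was again lowest in these 4, but 7SL was not highest in all of them. Its share was 6.73% and 6.24% in 6 h replicates 1 and 2, against 6.62% to 6.74% in vehicle. Neat1 had 456, 405 and 407 CPM in vehicle blood. In treated blood it had 384, 417 and 435 CPM (1 h), 229, 313 and 307 CPM (6 h), and 790, 359 and 249 CPM (24 h). All 6 h libraries were below all vehicle and all 1 h libraries, as for 29.3% and 31.9% of genes tested whose groups do not overlap in those comparisons. The 24 h libraries lay on both sides, with replicate 1 the highest and replicate 3 among the lowest of the 12. At 6 h the mean was 283 ± 46.6 CPM against 423 ± 28.6 CPM in vehicle (SD, n = 3 each), a log2 fold change of -0.58 (SE 0.31, adjusted p = 0.321). For 24 h against 6 h the change was 0.72 (SE 0.31, adjusted p = 0.189). Neither passed. Without 24 h replicate 1, Neat1 passed for 6 h against vehicle (log2 -0.60, adjusted p = 0.0374) and for 6 h against 1 h (log2 -0.58, adjusted p = 0.049), and without 24 h replicate 3 it passed for 24 h against 6 h (log2 1.02, adjusted p = 0.0103). Fitted to the 2 groups alone, it passed for 6 h against vehicle (log2 -0.58, adjusted p = 0.0237) and for 6 h against 1 h (log2 -0.58, adjusted p = 0.0144). As for 7SL, such fits called more of all genes in these contrasts than the reported fit did.

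**Figure D3:**
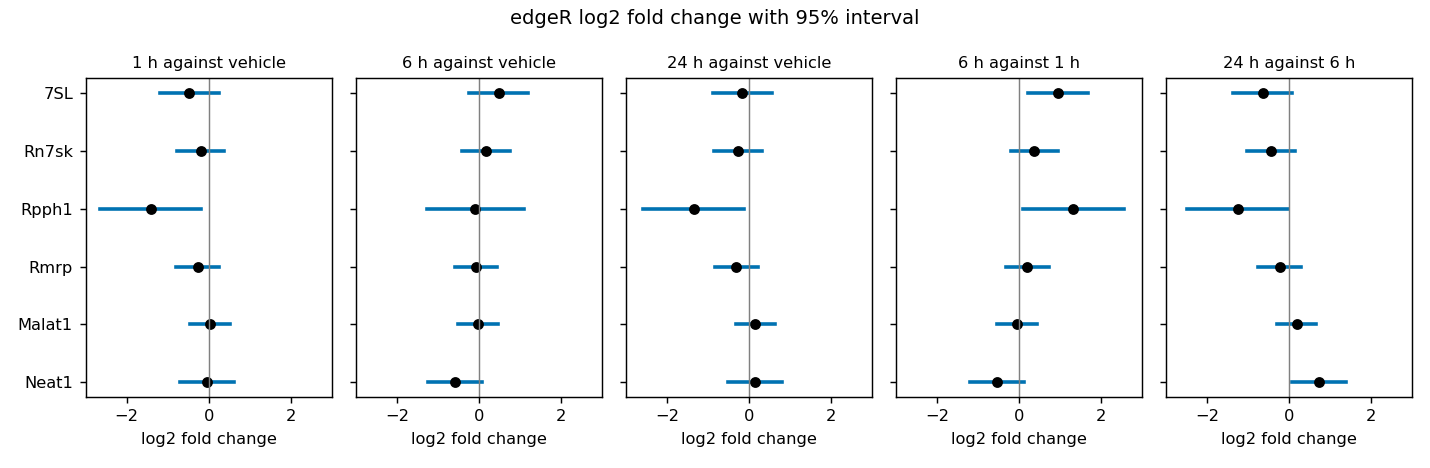
Dots give edgeR log2 fold changes and lines their 95% intervals for 5 of the 7 contrasts, with 7SL as the sum of its 2 rows. The interval of 7SL for 6 h against 1 h runs from 0.22 to 1.68, those of Rpph1 are the widest, and those of Malat1 all include 0.

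The 6 h values depend on the scaling. The 6 h libraries had TMM factors of 0.766 to 0.812, against 1.03 to 1.12 for the vehicle libraries. With library totals alone, the median log2 change of all genes at 6 h against vehicle moved to -0.50 from -0.04. Relative to library totals, 7SL was then level with vehicle (log2 0.03 for Rn7s1 and 0.01 for Rn7s2), Rn7sk turned to -0.28, Malat1 moved to -0.48, Rmrp to -0.53 and Neat1 to -1.04. For 24 h against 6 h that scaling called Malat1 (log2 0.71, adjusted p = 0.0245) and Neat1 (log2 1.34, adjusted p = 0.0263), where the median of all genes was 0.56. That scaling also called more of all genes there than the reported fit did.

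Red cell transcripts were highest in the same 4 libraries. Of 20 reticulocyte markers, 14 were higher at 6 h than in vehicle, among them Gata1 (log2 1.72), the erythroid transcription factor, Epb42 (log2 3.15), of the red cell membrane skeleton, and Slc4a1 (log2 2.13), the band 3 anion exchanger. Of all genes tested, 4.84% were called in that contrast. The 14 became 9 without vehicle replicate 1. For 24 h against 6 h, 9 of the 20 were lower, beside 1.76% of all genes called, but 0 in a fit to those 2 groups alone. With 1 library left out that count ran from 0, as happened without any of 7 libraries (1 h replicates 1 and 3, the 6 h libraries, and 24 h replicates 1 and 2), to 17 without 24 h replicate 3. The markers summed to 42702 to 48845 CPM in vehicle blood and 49519 to 58400 CPM in 1 h blood. In 6 h blood they summed to 83975 to 96999 CPM, and in 24 h blood to 25669, 34963 and 70789 CPM. The 4 libraries with the highest sums, all of 6 h and 24 h replicate 3, had 76932 to 95137 CPM of 7SL and 229 to 313 CPM of Neat1. The other 8 had 36137 to 64451 CPM of 7SL and 359 to 790 CPM of Neat1. These sums and levels share the TMM scaling. As a share of counts, 7SL in 6 h blood (6.24% to 7.42%) overlapped vehicle (6.62% to 6.74%). In whole blood fewer cells of a type and less RNA per cell cannot be told apart, and the part of cell make-up in these levels was not tested.

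The other marker lists were summed in the same way. Their calls at 6 h against vehicle stand beside 4.84% of all genes tested, and 1 call of 18 or 19 markers is near that share. Platelet markers ran from 6871 to 8791 CPM at 6 h against 4509 to 6112 CPM in vehicle, with 1 of 19 called, Thbs1, and reached 8677 CPM in 24 h replicate 3. All remaining libraries had at most 6112 CPM, so platelet markers split the libraries as reticulocyte markers did. In log2 CPM over the 12 libraries, 7SL had an r of 0.81 with the platelet sum and 0.78 with the reticulocyte sum. For Neat1 these were -0.82 and -0.85. The neutrophil sum gave 0.68 for 7SL and -0.50 for Neat1, and the monocyte sum gave -0.21 and 0.61. The points share library scaling and group. Neutrophil markers ran from 8424 to 14685 CPM at 6 h against 6013 to 12079 CPM in vehicle, with 1 of 19 called, Mmp8, which was higher. Monocyte markers ran from 5284 to 6023 CPM at 6 h against 6482 to 8846 CPM in vehicle, with 1 of 18 called, Ccr2, which was lower. NK cell markers ran from 883 to 999.6 CPM at 6 h against 664 to 940 CPM in vehicle, with 0 of 13 tested called. T cell markers gave 63.0 to 67.6 CPM at 6 h against 39.6 to 52.2 CPM in vehicle, with 1 of 8 tested called, Lat, an adaptor of T cell receptor signalling that platelets also make, which was higher (log2 1.25, edgeR adjusted p = 0.00243). The calls of Thbs1 and Lat held in all 22 alternative fits, while those of Mmp8 and Ccr2 held in 11 each and were lost without any single 1 h or 6 h library or without vehicle replicate 1 or 2. The Mmp8 call was also lost without 24 h replicate 2, with library totals alone and with TMM without the 7 rows, and the Ccr2 call with DESeq2 size factors, with no filter and with the replicate block. These 4 genes were named after their values were seen. B cell markers gave 37.9 to 45.0 CPM at 6 h against 29.5 to 53.2 CPM in vehicle. Annotated ribosomal RNA genes took 0.645% to 0.927% of counts at 6 h against 0.186% to 0.426% in vehicle.

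**Figure D4:**
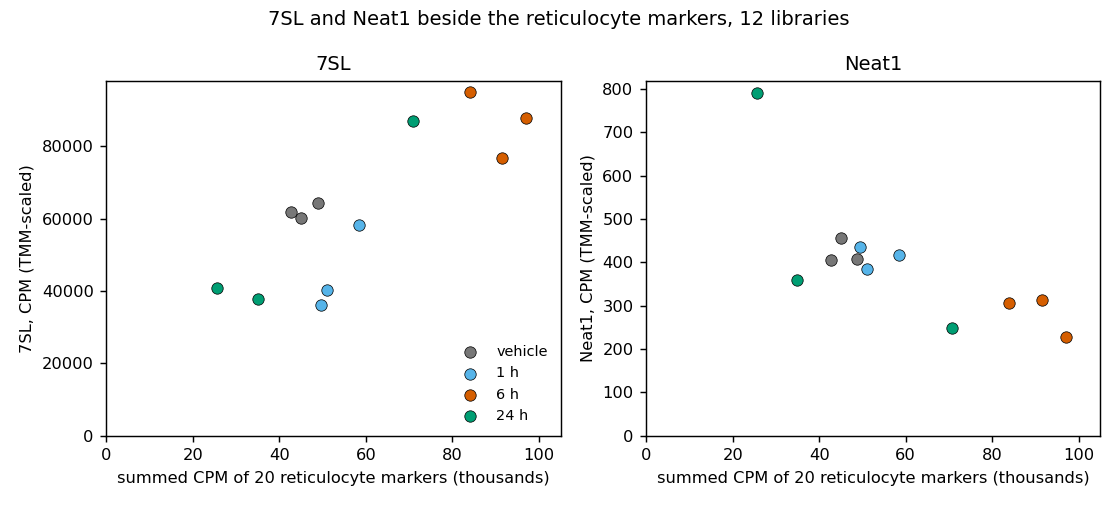
Each point is 1 library, with the summed CPM of 20 reticulocyte markers on the horizontal axis and the CPM of 7SL (left) or Neat1 (right) on the vertical axis, coloured by group. The 4 libraries with 70789 CPM of markers or more lie highest for 7SL, at 76932 to 95137 CPM, and lowest for Neat1, at 229 to 313 CPM.

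Genes related to these RNAs, 6 lists of partner proteins and 2 of other noncoding RNAs, were examined, with 126 of 158 genes tested. At 6 h against vehicle 3 of the 126 passed, 1 a protein gene and 2 mitochondrial ribosomal RNAs, against 4.84% of all genes, and for 24 h against 6 h 1 passed, against 1.76%. None passed in the other 5 contrasts. In the signal recognition particle list (Srp9 to Srp72 and the receptor) 0 of 10 passed at 6 h, with a median log2 change of 0.17 against -0.04 for all genes. Srp54c, a copy of the subunit that binds signal peptides, had the smallest p, at 21.8 ± 1.57 CPM at 6 h against 15.1 ± 1.46 CPM in vehicle (SD, n = 3 each, edgeR adjusted p = 0.158).

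Among the 7SK partners 0 of 7 passed at 6 h (median log2 -0.22). Hexim2, which with 7SK inhibits P-TEFb, had the smallest p, at 8.14 ± 2.5 CPM at 6 h against 3.51 ± 1.17 CPM in vehicle (edgeR adjusted p = 0.162). Among the RNase P and MRP proteins 0 of 8 tested passed (median log2 0.39). Rpp14 had the smallest p, at 3.94 ± 2.02 CPM at 6 h against 2.56 ± 0.87 CPM in vehicle (edgeR adjusted p = 0.513).

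Of 31 genes of the RNA polymerase III machinery, 0 passed at 6 h against vehicle (median log2 -0.11). For 24 h against 6 h, 1 was higher, Gtf3c1, the largest subunit of transcription factor TFIIIC. It had 30.5, 14.5 and 18.1 CPM at 24 h, against 9.07 ± 2.69 CPM at 6 h (SD, n = 3; log2 1.21, SE 0.28, edgeR adjusted p = 0.0452). The call held in 9 of 22 alternative fits. It was lost with the replicate block, with only the groups compared, and when any single library other than 24 h replicate 3 was left out, with an adjusted p of up to 0.216 over all fits. The groups did not overlap, as for 22.5% of genes tested.

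Partners of the nuclear RNAs also gave few calls. Among 18 nuclear speckle proteins, 1 was higher at 6 h than in vehicle, Srsf6, a splicing factor of the SR family. It had 77.5, 121 and 98.2 CPM at 6 h against 58.5 ± 2.12 CPM in vehicle (SD, n = 3; log2 0.76, SE 0.16, edgeR adjusted p = 0.0156). The call held in 16 of 22 alternatives and was lost without any of the 3 vehicle libraries, without 6 h replicate 2 or 3, or with library totals alone (adjusted p up to 0.306). Among 15 paraspeckle proteins 0 passed at 6 h (median log2 -0.12). Pspc1, a core paraspeckle protein, had the smallest p, at 20.7 ± 2.59 CPM at 6 h against 29.6 ± 4.61 CPM in vehicle (edgeR adjusted p = 0.16).

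Among 15 other small noncoding and structural RNAs tested, 2 were higher at 6 h than in vehicle, the mitochondrial ribosomal RNAs. mt-Rnr1 (12S) had 109, 102 and 88.3 CPM at 6 h against 15.9, 38.0 and 35.2 CPM in vehicle (log2 1.75, SE 0.35, edgeR adjusted p = 0.0112). mt-Rnr2 (16S) had 431, 476 and 457 CPM at 6 h against 76.6, 155 and 153 CPM in vehicle (log2 1.83, SE 0.41, edgeR adjusted p = 0.0214). All 6 h libraries were above all vehicle libraries in both. The mt-Rnr1 call was lost only without vehicle replicate 1 (adjusted p = 0.0505), and the mt-Rnr2 call was lost without any single vehicle or 6 h library (adjusted p up to 0.0984). Both are targets of ribosomal RNA depletion kits in general, and the part of depletion in their counts here was not tested. Of 22 other long noncoding RNAs tested, 0 passed at 6 h. Mir22hg, the host gene of miR-22, had the smallest p, at 5.13 ± 0.548 CPM at 6 h against 8.68 ± 1.11 CPM in vehicle (edgeR adjusted p = 0.122).

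The genes whose log2 CPM followed each RNA most closely over the 12 libraries, of 9990 candidates, are given as a description. The points share library scaling and group. For Rn7s1 they were Atp5e, Cdyl and Rps15 (Pearson r 0.95 each), and Rn7s2 had the same genes. Rn7sk was followed by Bmpr1a and Cd53 (r 0.97 and 0.96) and Neat1 by Arhgap30, Xylt1 and Slc44a2 (r 0.96, 0.96 and 0.94). Rmrp was followed by Api5, Pmaip1 and Gimap6 (r 0.86, 0.84 and 0.84), Malat1 by Slc22a15, Tmed8 and Herc4 (r 0.83, 0.82 and 0.82) and Rpph1 by Slc39a8, Adgrg3 and Atp6v0c-ps2 (r 0.81, 0.79 and 0.78). No gene appeared under more than 1 of the 6 RNAs. Malat1 and Neat1, neighbours on chromosome 19, had an r of 0.07 with each other in log2 CPM and of 0.75 as shares of counts.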

How the data were processed

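RNA of mouse whole blood was extracted with a PAXgene kit and sequenced after ribosomal RNA depletion as paired-end reads of 150 bases, per the labels' protocols. The deposited values are whole-number counts per gene, not scaled to library size. Per the submitters' processing notes RSEM was used, with no version. RSEM estimates counts, which may have been rounded here. The notes name hg38 although the identifiers are mouse. Which aligner, annotation release and strand setting were used was not given in the sources used here.

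GENCODE M21 (GRCm38) held 55111 of the 55367 identifiers and gave positions, lengths and sequences. Shares are percent of all gene counts, with 95% Wilson intervals. Counts were fitted with edgeR 4.0.16 in R 4.3.3: filterByExpr by group (13384 genes), TMM, 4 group means over 12 libraries, quasi-likelihood tests of 7 contrasts and an F test, Benjamini-Hochberg over all genes, threshold 0.05. SE is the log2 fold change over the root of F. Library totals were 6496573 to 9978215. The code was tested on simulated data.

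The members and lists were chosen with earlier results of these data known. Members were always named. From each list of partners up to 4 genes past the threshold were named, otherwise the 1 with the smallest p, and for each member the 3 most correlated genes with a mean log2 CPM of at least 1 and no predicted name, of which 1 gene is not reported here. Alternatives were DESeq2 1.42.0 size factors, library totals alone, TMM without the 7 rows, no filter, 5 CPM in 3 libraries, DESeq2 tests without independent filtering, limma-voom (limma 3.58.1), the replicate number as a block, only the groups compared, and each library left out. Summing Rn7s1 and Rn7s2, and the permutation tests of shares, were added after seeing the data.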

Additional observations from a re-analysis of the deposited data

How the results depend on the processing

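Over 1071 alternative values of the 49 member fold changes, 25 gave a call and 48 a change of sign, all of uncalled values. The cause was not tested. Rn7s1 and Rn7s2, which are 1 measurement, are counted separately in these tallies. Rows called, 0 in the reported fit throughout, became 1 at 1 h, 1 at 24 h and 1 for the mean of the times against vehicle, 3 for 6 h against 1 h, 2 for 24 h against 6 h and 2 in the F test with no filter. With only the groups compared they were 3 at 6 h against vehicle and 3 for 6 h against 1 h. DESeq2 gave 2 for 6 h against 1 h and 2 in its test among times, and library totals alone gave 2 for 24 h against 6 h. Leaving out 1 library in turn gave at most 1 at 6 h against vehicle, 1 to 2 for 6 h against 1 h, and 3 for both 24 h against 6 h and the F test, where any changed.

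Counts over all genes moved more. At 1 h against vehicle the 26 calls became 65 with library totals, 288 with no filter, 152 with DESeq2, 17 with limma-voom, 204 with only the groups compared, and 7 to 165 with a library left out. At 6 h the 648 became 1832, 1265 and 1160 under the first 3 of these, 1382 with only the groups compared, and 239 to 1266. At 24 h the 14 became 26, 237 and 83, then 7 with limma-voom, 1 with only the groups compared, and 3 to 112. For the mean of the times 125 became 499 with no filter, 367 with DESeq2, and 14 to 357. For 6 h against 1 h 66 became 674 with library totals, 1227 with no filter, 742 with DESeq2, 1720 with only the groups compared, and 4 to 1285. For 24 h against 6 h 235 became 2951, 1477 and 1125 under the same first 3, 445 with 5 CPM, 729 with limma-voom, 0 with only the groups compared, and 0 to 2243. For 24 h against 1 h 3 became 107 with no filter, 27 with DESeq2, 5 with limma-voom, and 0 to 205.

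Same-numbered libraries correlated weakly in their deviations: 2 of 18 pairs were above 0.1 (range -0.11 to 0.17). Of the 12 libraries, 7 were closest to their own number. With 3 numbers this is more than an even split would give, and the excess was not tested. The fit with the replicate block called 418 genes for 24 h against 6 h, 1 for 24 h against 1 h, and no member. Shares moved by over 1 SD in 12 of 176 alternatives, all with the 7 rows taken out of the total. Most of the 176 left out 1 of 3 libraries. That cannot move a mean by 1 SD, so these could not be counted as moved. TPM moved by over 1 SD in 18 of 36 with the longest transcript as the length. Rpph1 and Rmrp are limited by depth, with 65 to 634 counts a library.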
